A study of Mus musculus with 37 samples.

Results

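The early step of osteoclast formation, from day 0 to day 2 of culture, was compared between Arid1a knockout (KO) and wild-type (WT) mouse macrophages. The quantity described is the genotype by time interaction, which is the day 2 over day 0 change in KO minus the same change in WT, on the log2 scale. It was read from the deposited count table for 8 of the 37 samples of the series, 2 libraries in each of 4 groups: KO at day 0, KO at day 2, WT at day 0 and WT at day 2. All 8 were bone-marrow-derived macrophages from a course of osteoclast differentiation, and day 0 is the start of that culture. The labels give no strain, age or sex. They also do not say how Arid1a was deleted, which cells the deletion reached, or whether libraries of one group came from different animals or cultures. The p-values therefore measure the spread between these libraries, which may be technical. In the whole series, 12 samples are RNA-seq libraries.

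Osteoclasts are the multinucleated cells that resorb bone. They form from macrophage precursors when the receptor RANK is engaged by its ligand, which turns on NF-kB, mitogen-activated kinases, AP-1 factors of the Jun and Fos families, and then the transcription factor Nfatc1 with its targets in bone resorption. Arid1a is a DNA-binding subunit of the BAF complex, which moves nucleosomes and opens chromatin for such factors.

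The 8 libraries held between 16282164 and 18608353 counts each. The table lists 23170 genes, and 12774 passed the filter on low counts and were tested. Levels are in CPM, a share of the TMM-scaled library size. Log2 values are given ± SE, and "called" means a Benjamini-Hochberg adjusted p under 0.05 in edgeR's quasi-likelihood test over all genes tested. The macrophage gene Csf1r was at 3681 CPM or more in each of the 8 libraries. The defining T cell genes Cd3d, Cd3e and Cd3g and the globin genes were at or under 3 counts over all 8. Cd4, another T cell marker, was at 1.16 to 45.4 CPM. Neutrophil markers summed to 24.5 CPM in WT day 0 replicate 1 and to 0.387 to 1.23 CPM in the other libraries. Markers of stromal cells were present and unequal: their sum over 16 genes was 3370 to 7500 CPM in KO at day 0, 2970 to 11500 CPM in KO at day 2, 711 to 6600 CPM in WT at day 0 and 10900 to 14500 CPM in WT at day 2. The lowest of these sums, 711 CPM, belonged to WT day 0 replicate 1. That library stood apart from its partner at over 2-fold in 1457 genes (11.4% of those tested), while the partners differed that far in 608 genes in KO at day 0, 1062 in KO at day 2 and 434 in WT at day 2.

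The steps of KO and WT could be told apart by the test in a single gene, Tnfaip3 (0.00783% of the genes tested), which rose further in KO. By size, the genes with a lower KO step were led by products of mature osteoclasts, Ctsk and Mmp9 among them, and those with a higher KO step by macrophage inflammatory genes such as Ly6i and Acod1. The KO step alone gave 606 calls (4.74%), of which 385 rose and 221 fell, and the WT step alone gave 2211 (17.3%), of which 1029 rose and 1182 fell (1247 and 648 on the log2(TPM + 1) scale). The median SE was 0.221 for each step and 0.311 for their difference. The fit shares each gene's estimate of spread over all groups, so equal SEs for the steps follow from the fit. They do not show equal spread in KO and WT, and the partner libraries differed unequally between groups, as given above. At an unadjusted p under 0.05, 1216 genes (9.52%) stood out, 637 with a higher KO step (4.99%) and 579 with a lower one (4.53%). A call in one step and not in the other does not show that a gene differs between genotypes. The number of interaction calls was 18 without either KO day 4 library, which enters the shared estimate of spread and not the contrast, 9 without WT day 0 replicate 2, and 0 without any other single library of the 12.

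Genes were ordered by a rule of size for description. Each genotype has 4 day 2 minus day 0 differences between its libraries, and the steps of a gene are separated when all 4 KO differences lie on one side of all 4 WT differences. Separated steps were found in 2044 genes with a higher KO step (16.0%) and 1910 with a lower one (15.0%). Adding an unadjusted p under 0.05 and a mean of at least 5 CPM left 1014 genes, 603 higher and 411 lower. Among the 603, fitted values rose in KO and fell in WT in 274, fell less in KO in 245 and rose more in KO in 84. Among the 411, they rose less in KO in 188, fell in KO while they rose in WT in 203, and fell more in KO in 20. These 1014 genes were chosen on the interaction itself, so the counts only describe their shapes.

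**Figure D1:**
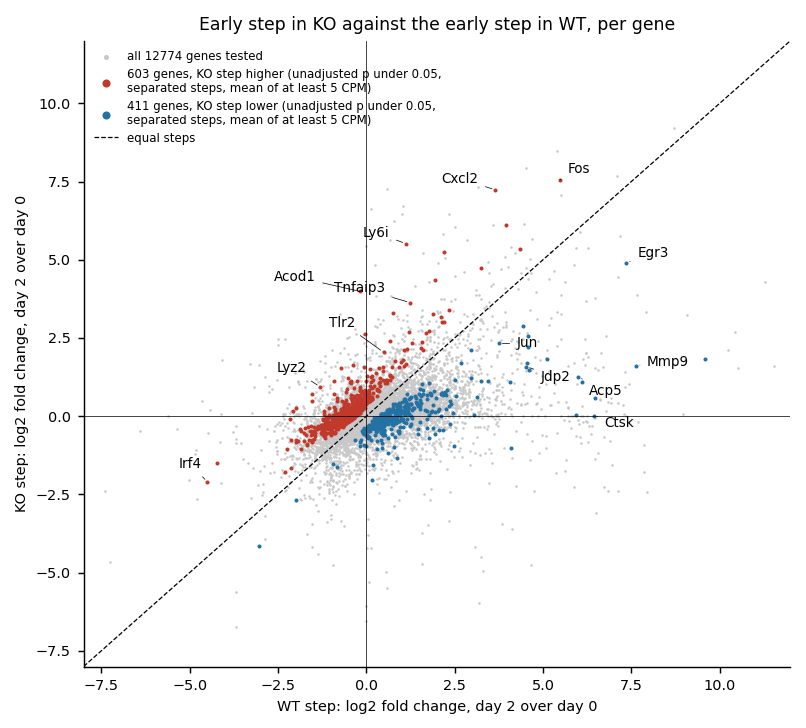
Fitted log2 fold change from day 0 to day 2 in KO (vertical axis) against the same in WT (horizontal axis), 1 point per gene, for the 12774 genes tested. Points above the dashed line have a higher KO step and points below it a lower one, and the red and blue points are the 603 and 411 genes of the rule of size.

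Tnfaip3 encodes A20, a ubiquitin-editing enzyme that is itself induced by NF-kB and restrains NF-kB signalling. Its level was 15.4 and 11.6 CPM in KO at day 0 and 157 and 177 CPM in KO at day 2, against 38.2 and 42.1 CPM in WT at day 0 and 95.06 and 95.03 CPM in WT at day 2. The KO libraries were thus the lower ones at day 0 and the higher ones at day 2, with no overlap on either day. Tnfaip3 rose in both genotypes, by 3.63 ± 0.18 in KO (adjusted p = 2.84e-05) and 1.24 ± 0.16 in WT (adjusted p = 0.00274). The interaction was 2.39 ± 0.23 (adjusted p = 0.0484). KO over WT was -1.57 ± 0.17 at day 0 (adjusted p = 0.00957) and 0.81 ± 0.16 at day 2 (adjusted p = 0.0328). Over all genes tested, 202 were called between the genotypes at day 0 (1.58%) and 577 at day 2 (4.52%). Tnfaip3 was the only gene called lower in KO at day 0 and called higher in KO at day 2. No gene was called the other way round, while 46 genes were called lower on both days and 59 higher on both.

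The size of this interaction was stable, and its call was at the threshold. The value lay between 2.19 and 2.61 over 24 other settings, with adjusted p from 6.04e-15 to 0.58 and a call in 7. With the replicate number as a block within genotype the call was lost (2.38, adjusted p = 0.0747). It was also lost without WT day 0 replicate 1, either WT day 2 library, either WT day 4 library, either KO day 0 library or either KO day 2 library. The KO rise was called with any library left out, and so was the WT rise. The call against WT was lost at day 0 without either KO day 0 library, and at day 2 without either library of WT day 2, WT day 4 or KO day 2.

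**Figure D2:**
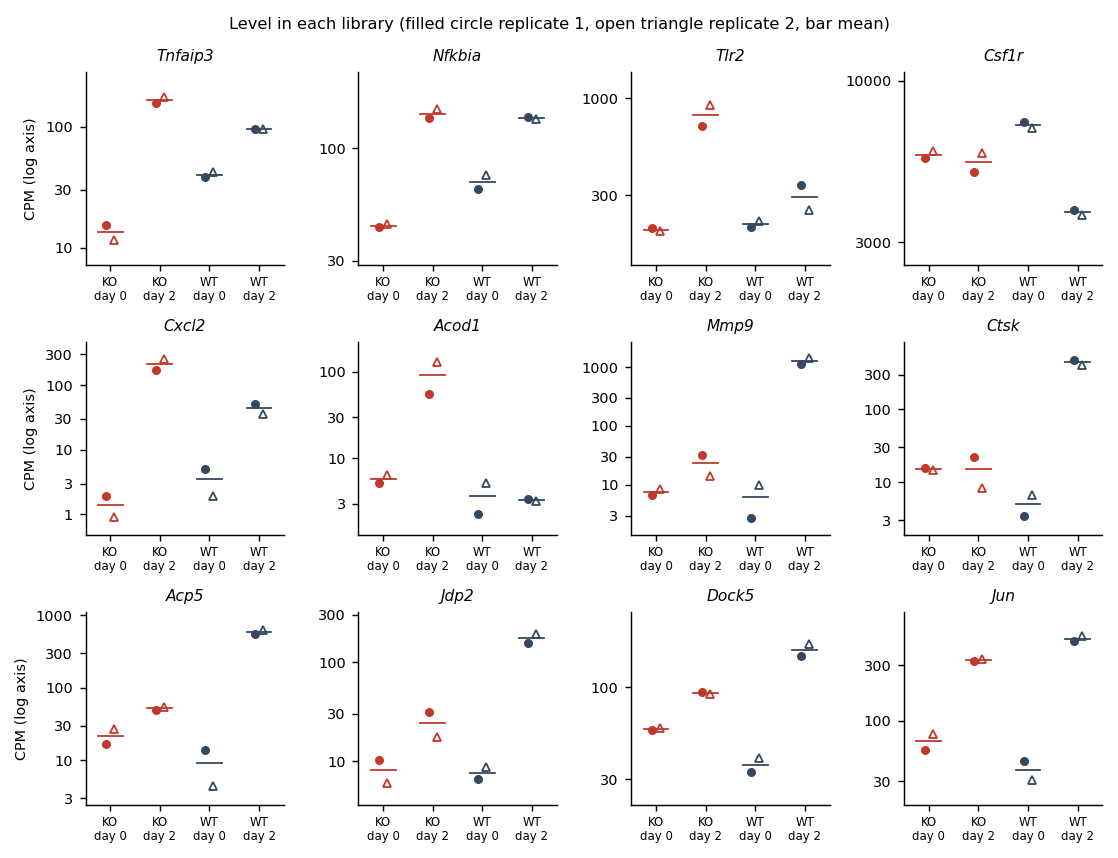
Level in CPM (log axis) of 12 genes in each library, KO day 0 and day 2 on the left and WT day 0 and day 2 on the right of each panel, with a bar at the group mean. Tnfaip3 libraries of KO lie below those of WT at day 0 and above them at day 2, while Mmp9 reaches 1124 and 1401 CPM only in the WT day 2 libraries of the 8.

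Promoters are shown for 4 of the genes described, because AP-1 and NF-kB are the factors that RANK activates. Each run is the RefSeq promoter of build GRCm38.p6, from 250 bases before the transcription start to 50 bases after it, 5′ to 3′ on the gene's own strand. Capitals mark matches, on either strand, to the AP-1 motif TGANTCA or to the NF-kB consensus motif. Tnfaip3 lies on the minus strand at chr10:19015361-19015660, Nfkbia on the minus strand at chr12:55492598-55492897, Cxcl2 on the plus strand at chr5:90903649-90903948 and Ctsk on the plus strand at chr3:95498960-95499259.
Tnfaip3: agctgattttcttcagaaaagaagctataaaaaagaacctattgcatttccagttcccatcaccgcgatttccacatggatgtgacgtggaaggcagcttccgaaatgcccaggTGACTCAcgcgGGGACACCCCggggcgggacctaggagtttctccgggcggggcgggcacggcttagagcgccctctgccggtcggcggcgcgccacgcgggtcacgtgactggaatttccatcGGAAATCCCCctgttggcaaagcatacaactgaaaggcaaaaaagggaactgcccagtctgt
Nfkbia: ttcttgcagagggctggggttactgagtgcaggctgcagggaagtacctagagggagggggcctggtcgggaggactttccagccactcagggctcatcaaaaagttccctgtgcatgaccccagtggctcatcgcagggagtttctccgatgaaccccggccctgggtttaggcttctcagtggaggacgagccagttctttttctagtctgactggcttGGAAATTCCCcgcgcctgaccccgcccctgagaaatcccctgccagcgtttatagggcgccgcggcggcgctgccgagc
Cxcl2: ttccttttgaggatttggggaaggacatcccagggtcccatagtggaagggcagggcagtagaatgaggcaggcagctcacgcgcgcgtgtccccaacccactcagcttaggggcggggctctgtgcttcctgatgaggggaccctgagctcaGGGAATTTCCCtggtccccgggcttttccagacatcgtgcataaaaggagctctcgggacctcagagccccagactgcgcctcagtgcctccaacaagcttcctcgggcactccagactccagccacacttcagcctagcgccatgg
Ctsk: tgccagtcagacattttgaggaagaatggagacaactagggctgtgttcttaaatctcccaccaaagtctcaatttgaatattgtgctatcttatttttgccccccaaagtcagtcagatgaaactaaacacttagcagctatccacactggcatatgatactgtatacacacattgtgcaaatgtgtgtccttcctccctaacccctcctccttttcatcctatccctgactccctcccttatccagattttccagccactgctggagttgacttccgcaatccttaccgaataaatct
The Tnfaip3 window held 1 AP-1 match, from -136 to -130, and 2 NF-kB matches, from -125 to -116 and from -12 to -3, counted from the start. A second annotated start of Tnfaip3 had no match in its window. Nfkbia held 1 NF-kB match, Cxcl2 held 2 that overlap each other, and Ctsk held none of either motif. Promoters were available for 10150 of the 12774 genes tested, and the NF-kB motif was in at least 1 window of 12.4% of them and the AP-1 motif in 6.57%. For the 603 genes with a higher KO step, 483 had promoters, 18.4% with the NF-kB motif and 6.42% with the AP-1 motif. For the 411 with a lower KO step, 336 had promoters, 12.8% with the NF-kB motif and 3.87% with the AP-1 motif. These shares are descriptions of letters in a window, with no test, and the overlap of the NF-kB and AP-1 matches was nil in the 4 windows shown.

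The inhibitors of NF-kB had interactions above 0 that were not called. Nfkbia encodes the inhibitor that holds NF-kB in the cytoplasm. It had 43.0 and 44.4 CPM in KO at day 0 and 138 and 152 CPM in KO at day 2, against 64.98 and 74.95 CPM in WT at day 0 and 140 and 137 CPM in WT at day 2. The KO libraries lay below the WT libraries at day 0 and overlapped them at day 2. Nfkbia rose in both genotypes (1.73 ± 0.11 in KO and 0.98 ± 0.11 in WT), and the interaction was 0.75 ± 0.15 (adjusted p = 0.37). Both rises were called with any 1 of the 12 libraries left out. Nfkbie, a related inhibitor, rose by 2.34 ± 0.28 in KO and 1.31 ± 0.27 in WT, with an interaction of 1.04 ± 0.38 (adjusted p = 0.503), and its WT rise lost the call without WT day 0 replicate 1 or either WT day 2 library (adjusted p up to 0.0845).

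Of 35 RANK signalling genes tested, separated steps were higher in KO in 19 (16.0% of all genes tested) and lower in 2 (15.0%). The median interaction of the 35 was 0.31, against -0.01 over all genes tested. In the KO step 7 of the 35 rose (3.01% of all genes tested rose) and 0 fell. In the WT step 8 rose (8.06% of all genes) and 6 fell (9.25%), among them the kinase gene Mapk3. The 2 lower members were Tnfrsf11a, which encodes RANK, and Nfatc1, which was picked out after its values were seen. Tnfrsf11a had 49.6 and 53.7 CPM in KO at day 0 and 65.7 and 69.0 CPM in KO at day 2, against 48.2 and 37.4 CPM in WT at day 0 and 78.2 and 84.1 CPM in WT at day 2. It rose in WT (0.92, adjusted p = 0.00339), its KO step was 0.38 (adjusted p = 0.131) and the interaction was -0.54 ± 0.18 (adjusted p = 0.481). Nfatc1 was at 103 and 130 CPM in KO at day 0 and 102 and 114 CPM in KO at day 2, against 83.8 and 84.4 CPM in WT at day 0 and 129 and 141 CPM in WT at day 2. The genotypes did not overlap at day 0, where KO was higher, or at day 2, where KO was lower. Its interaction was -0.79 ± 0.48 (adjusted p = 0.597), and neither step was called.

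Of 15 genes that restrain osteoclast formation, separated steps were higher in KO in 6 (16.0% of all genes tested) and lower in 0 (15.0%). The median interaction of the 15 was 0.38 (0.16 on the log2(TPM + 1) scale, and 0.23 to 0.40 with 1 library left out). Tnfaip3 is 1 of the 6, and so is Nfkbie, which is also on the RANK signalling list. Tsc22d3, a glucocorticoid-induced transcriptional regulator, fell in WT (-0.82, adjusted p = 0.00775, and up to 0.0559 without either WT day 2 library). Its KO step was 0.06 and its interaction 0.88 ± 0.19 (adjusted p = 0.374).

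Of 26 inflammatory genes tested, 16 rose in the KO step (3.01% of all genes tested) and 17 in the WT step (8.06%), with 0 falls in either. Separated steps were higher in KO in 14 (16.0% of all genes) and lower in 2 (15.0%). The list was mixed in sign, with 16 interactions above 0 and 10 below. At an unadjusted p under 0.05 in edgeR, 7 were higher (4.99% of all genes) and 4 lower (4.53%). The median interaction was 0.75, or 0.91 with groups at 3 counts or fewer set to 3 counts, and it was 0.46 when either WT day 0 replicate 2 or KO day 2 replicate 2 was left out. Cxcl2, a neutrophil-attracting chemokine, had 1.90 and 0.901 CPM in KO at day 0 and 175 and 252 CPM in KO at day 2, against 5.003 and 1.933 CPM in WT at day 0 and 51.22 and 35.99 CPM in WT at day 2. It rose by 7.23 ± 0.86 in KO and 3.65 ± 0.73 in WT, and the interaction was 3.58 ± 1.03 (adjusted p = 0.471). The KO rise lost its call without KO day 0 replicate 2 (adjusted p = 0.0608), and the WT rise without WT day 0 replicate 2 or either WT day 2 library (adjusted p up to 0.0707).

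Acod1 encodes the enzyme that makes itaconate in activated macrophages. It was at 5.28 and 6.37 CPM in KO at day 0 and 56.1 and 129 CPM in KO at day 2, against 2.27 and 5.19 CPM in WT at day 0 and 3.38 and 3.25 CPM in WT at day 2. Only the KO day 2 libraries were high. Acod1 rose by 3.99 ± 0.65 in KO (adjusted p = 0.0151), its WT step was -0.17 ± 0.65 (adjusted p = 0.864), and the interaction was 4.16 ± 0.90 (adjusted p = 0.374). The KO rise lost its call without either KO day 0 library or KO day 2 replicate 2 (adjusted p up to 0.137). The chemokine genes Ccl5, Cxcl1 and Cxcl10 had interactions of 2.53, 3.04 and 2.65, and that of Cxcl1 was 1.22 without WT day 0 replicate 1. Ly6i, a cell-surface gene of the Ly6 family, had 4.38 ± 1.10 (adjusted p = 0.454). Ly6i had 0.831 and 0.644 CPM in KO at day 0 and 28.4 and 39.7 CPM in KO at day 2, against 1.10 and 0.497 CPM in WT at day 0 and 1.11 and 2.41 CPM in WT at day 2.

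Not every inflammatory gene went this way. Ccl7, a monocyte chemokine, had 14.7 and 8.95 CPM in KO at day 0 and 62.8 and 45.6 CPM in KO at day 2, against 1.05 and 2.93 CPM in WT at day 0 and 55.0 and 40.1 CPM in WT at day 2. The groups overlapped at day 2 and the KO libraries were higher at day 0. Its interaction was -2.37 ± 0.59 (adjusted p = 0.452). Arg1, which encodes arginase, is the other member with separated steps lower in KO. It had 1.48 and 1.42 CPM in KO at day 0 and 3.001 and 3.207 CPM in KO at day 2, against 0.0582 and 0.497 CPM in WT at day 0 and 30.2 and 8.97 CPM in WT at day 2.

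Macrophage genes leaned to a higher KO step, with falls in WT behind several of them. Of 31 tested, 1 fell and 3 rose in the KO step, where 1.73% of all genes fell and 3.01% rose. In the WT step 8 fell and 3 rose, where 9.25% of all genes fell and 8.06% rose, so the rises in WT were near the share of all genes. Separated steps were higher in KO in 14 (16.0% of all genes) and lower in 0, at a median of 0.55. The product of Csf1r receives the survival signal of the growth factor M-CSF. It had 5630 and 5913 CPM in KO at day 0 and 5084 and 5861 CPM in KO at day 2, against 7381 and 7026 CPM in WT at day 0 and 3821 and 3681 CPM in WT at day 2. Csf1r fell in WT (-0.94 ± 0.13, adjusted p = 0.00397), its KO step was -0.08 ± 0.13 (adjusted p = 0.829), and the interaction was 0.86 ± 0.19 (adjusted p = 0.374). The genotypes did not overlap on either day, with KO lower at day 0 and higher at day 2.

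Tlr2, a receptor for bacterial lipoproteins, was similar in all day 0 libraries and higher in KO at day 2. Its levels were 200 and 192 CPM in KO at day 0 and 705 and 916 CPM in KO at day 2, against 202 and 218 CPM in WT at day 0 and 340.1 and 248.9 CPM in WT at day 2. Tlr2 rose in KO (2.05 ± 0.20, adjusted p = 0.000819), its WT step was 0.49 ± 0.19 (adjusted p = 0.108), and the interaction was 1.56 ± 0.27 (adjusted p = 0.28). Cd14, a co-receptor for lipopolysaccharide, rose in both genotypes, with an interaction of 1.04 ± 0.38 (adjusted p = 0.505), and of 0.65 without KO day 2 replicate 2. The Cd14 rises lost their calls without either KO day 0 library in KO (adjusted p up to 0.0638) and in 6 of 12 leave-outs in WT (adjusted p up to 0.166).

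Lyz2, which encodes lysozyme M, differed in level by far more than in step. It had 36.4 and 49.3 CPM in KO at day 0 and 89.9 and 74.0 CPM in KO at day 2, against 41320 and 36020 CPM in WT at day 0 and 15260 and 16100 CPM in WT at day 2. Lyz2 fell in WT (-1.30 ± 0.23, adjusted p = 0.00917), its KO step was 0.94 ± 0.23 (adjusted p = 0.0593), and the interaction was 2.24 ± 0.33 (adjusted p = 0.188). Lyz2 is the locus that carries the Cre driver in many myeloid knockout mice, and the labels name no driver; its part in the result was not tested. The WT fall lost its call without either WT day 2 library (adjusted p up to 0.0702). Its close copy Lyz1 was at 2.33 to 42.0 CPM in the 8 libraries, and reads of the 2 genes can be shared between them in counting.

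All 29 interferon-response genes tested had an interaction above 0, at a median of 1.16, with 8 separated higher (16.0% of all genes) and 0 lower. In edgeR 0 of them were called in the interaction, and 2 had an unadjusted p under 0.05. The size depended on the replicates: with replicate 1 of each group the median was 2.42, and with replicate 2 it was 0.39. Leaving out WT day 2 replicate 1 gave 0.66, and dropping its replicate 2 gave 2.00. Leaving out KO day 0 replicate 1 gave 0.77, and dropping its replicate 2 gave 1.83. It was 0.76 in the absence of KO day 2 replicate 2. Cxcl10, an interferon-induced chemokine, had 4.45 and 8.11 CPM in KO at day 0 and 28.1 and 49.4 CPM in KO at day 2, against 6.75 and 3.37 CPM in WT at day 0 and 2.50 and 7.46 CPM in WT at day 2. Of 18 antigen presentation genes, 16 had an interaction above 0. The 3 separated higher were near the share of all genes (16.0%). The median was 0.65, and leaving out WT day 0 replicate 1 gave 0.33. It was 0.42 with KO day 0 replicate 1 left out, and dropping KO day 2 replicate 2 gave 0.43. B2m, the light chain of class I molecules, was at 0.73 ± 0.32 (adjusted p = 0.525).

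Genes of the mature osteoclast mostly had the lower KO step, with large rises in WT. Of 22 tested, 10 rose and 1 fell in the WT step (8.06% and 9.25% of all genes tested). In the KO step 1 rose, near the share of all genes (3.01%), and 0 fell (1.73%). Separated steps were lower in KO in 15 (15.0% of all genes tested) and higher in 2, and 20 of the 22 interactions were below 0. Their median was -1.43, the same with groups at 3 counts or fewer set to 3 counts, and with 1 library left out it lay between -1.70 (leaving out WT day 0 replicate 1) and -1.10 (KO day 0 replicate 1). In bulk RNA, fewer osteoclast precursors and less RNA per cell cannot be told apart. All 15 stromal markers tested also had an interaction below 0. Their median was -1.60, or -1.43 with groups at 3 counts or fewer set to 3 counts. The 2 separated lower were near the share of all genes (15.0%). The part of the stromal markers in the result was not tested. Of the osteoblast markers, Bglap, Bglap2, Alpl, Sp7, Ibsp and Phex were under 0.5 CPM in each of the 8 libraries. Others were present: Runx2 at 7.47 to 16.1 CPM, Tnfrsf11b at 1.09 to 24.7 CPM and Tnfsf11 at 0 to 1.26 CPM. Spp1, which macrophages and osteoclasts also express, had 509 and 429 CPM in KO at day 0 and 535 and 497 CPM in KO at day 2, against 321 and 817 CPM in WT at day 0 and 1720 and 2320 CPM in WT at day 2.

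Mmp9, a secreted gelatinase, had 6.82 and 8.43 CPM in KO at day 0 and 32.5 and 14.4 CPM in KO at day 2, against 2.73 and 9.89 CPM in WT at day 0 and 1124 and 1401 CPM in WT at day 2. The genotypes overlapped at day 0 and lay far apart at day 2. Mmp9 rose in WT (7.64 ± 0.69, adjusted p = 0.000949), its KO step was 1.62 ± 0.55 (adjusted p = 0.147), and the interaction was -6.02 ± 0.81 (unadjusted p = 6.68e-05, adjusted p = 0.188). It was called on the log2(TPM + 1) scale (-6.24, adjusted p = 0.0377), by DESeq2 (adjusted p = 2.13e-14) and without WT day 0 replicate 2 (-7.24, adjusted p = 0.0289).

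The proteases and acid phosphatase of the resorbing cell were alike in this. Ctsk encodes cathepsin K, which degrades bone collagen. It had 15.8 and 14.7 CPM in KO at day 0 and 22.5 and 8.32 CPM in KO at day 2, against 3.43 and 6.68 CPM in WT at day 0 and 469 and 410 CPM in WT at day 2. Acp5, the tartrate-resistant acid phosphatase, had 16.9 and 26.9 CPM in KO at day 0 and 50.1 and 54.2 CPM in KO at day 2, against 13.96 and 4.419 CPM in WT at day 0 and 549 and 623 CPM in WT at day 2. In both genes the KO libraries were above the WT libraries at day 0 and far below them at day 2. Both rose in WT (for Ctsk, adjusted p up to 0.0766 without any 1 library of WT day 0 or day 2), the KO steps were not called, and the interactions were -6.42 ± 1.55 for Ctsk (adjusted p = 0.437) and -4.74 ± 0.96 for Acp5 (adjusted p = 0.374). Slc9b2, a sodium/proton exchanger, followed the same course at -5.90 ± 1.51 (adjusted p = 0.458).

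A pair of members of the fusion and maturation group rest on very few counts at day 0, so no fold is given for them. Ocstamp, needed for cell fusion, had 0.297 and 0.258 CPM in KO at day 0 and 1.19 and 0.819 CPM in KO at day 2, against 0 and 0.0552 CPM in WT at day 0 and 22.2 and 32.6 CPM in WT at day 2. Siglec15, the receptor gene named in the series title, had 0 and 0.0644 CPM in KO at day 0 and 0 in both KO libraries at day 2, against 0 in both WT libraries at day 0 and 2.22 and 1.26 CPM in WT at day 2. Only the WT day 2 libraries held more than 1 count of Siglec15. The kinase gene Src, which acts in the resorbing border, rose in WT by 2.50 ± 0.39, with a KO step of 1.17 ± 0.38 (adjusted p = 0.133) and an interaction of -1.33 ± 0.53 (adjusted p = 0.51).

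Of 21 immediate-early genes 17 rose in KO (3.01% of all genes) and 19 in WT (8.06%), and of 16 AP-1 genes 8 rose in KO and 10 in WT, with 0 falls. The median interactions were -0.01 and -0.09, and both change sign under other settings. Single members differed in opposite directions. Fos had 6.23 and 4.70 CPM in KO at day 0 and 920 and 1142 CPM in KO at day 2, against 27.3 and 7.01 CPM in WT at day 0 and 708 and 826 CPM in WT at day 2. Its interaction was 2.07 ± 0.72 (adjusted p = 0.493), and it was 0.80 without WT day 0 replicate 1, the library at 27.3 CPM, and 1.31 on the log2(TPM + 1) scale. Nr4a2, an orphan nuclear receptor, had an interaction of 2.15 ± 0.69 (adjusted p = 0.481).

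Jun, the partner of Fos in the AP-1 dimer, had 55.7 and 77.5 CPM in KO at day 0 and 324 and 343 CPM in KO at day 2, against 45.1 and 30.6 CPM in WT at day 0 and 485 and 535 CPM in WT at day 2. Jun rose in both genotypes, by 2.32 ± 0.30 in KO and 3.75 ± 0.32 in WT, with an interaction of -1.43 ± 0.40 (adjusted p = 0.471). The KO rise lost its call without KO day 0 replicate 1 (adjusted p = 0.0542). Jdp2, a Jun-dimerising factor that mice need for osteoclast formation, had 10.2 and 6.05 CPM in KO at day 0 and 31.1 and 17.6 CPM in KO at day 2, against 6.51 and 8.67 CPM in WT at day 0 and 158 and 193 CPM in WT at day 2. The groups overlapped at day 0 and lay apart at day 2. The Jdp2 interaction was -2.94 ± 0.51 (adjusted p = 0.28). It was called with the replicate number as a block within genotype (-2.95, adjusted p = 0.00298) and by DESeq2 (adjusted p = 6.77e-06). Egr3, an early growth response factor, and Dusp4, a phosphatase of mitogen-activated kinases, had interactions of -2.46 ± 0.93 and -3.13 ± 0.87. For Egr3, leaving out WT day 0 replicate 1 gave -1.61 and dropping its replicate 2 gave -4.87. For Dusp4, leaving out KO day 0 replicate 1 gave -1.71.

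The cytoskeletal list was mixed, with 5 separated higher of 25, near the share of all genes (16.0%), and 7 lower (15.0% of all genes). Dock5, a guanine nucleotide exchange factor for Rac that osteoclasts need for resorption, had 57.3 and 58.8 CPM in KO at day 0 and 94.1 and 92.0 CPM in KO at day 2, against 32.9 and 39.6 CPM in WT at day 0 and 150 and 176 CPM in WT at day 2. KO was higher at day 0 and lower at day 2, with no overlap. Its interaction was -1.49 ± 0.22 (unadjusted p = 0.000101, adjusted p = 0.188). Myo10, a motor protein of filopodia from the cell fusion list, had -1.14 ± 0.36 (adjusted p = 0.481). P2rx7, an ATP-gated channel from the same list, fell in WT (-1.06, adjusted p = 0.00711, and 0.0586 without WT day 2 replicate 1) with a KO step of 0.05 and an interaction of 1.11 ± 0.24 (adjusted p = 0.374).

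Genes of glycolysis rose in WT, and most of them had the lower KO step. Of 18 glycolysis genes, 3 rose and 0 fell in KO (3.01% and 1.73% of all genes), and 15 rose and 1 fell in WT (8.06% and 9.25%). Separated steps were lower in 13 (15.0% of all genes) and higher in 1, at a median interaction of -0.55. Ldha, which makes lactate from pyruvate, had 484 and 441 CPM in KO at day 0 and 790 and 681 CPM in KO at day 2, against 304 and 349 CPM in WT at day 0 and 1139 and 996 CPM in WT at day 2. KO was higher at day 0 and lower at day 2, with no overlap. Its interaction was -1.04 ± 0.30 (adjusted p = 0.471). Of 33 oxidative phosphorylation genes, 32 had an interaction below 0, 21 were separated lower (15.0% of all genes) and 0 higher, and the median was -0.29 (-0.44 without WT day 0 replicate 2, -0.55 on the log2(TPM + 1) scale). Cyc1, a subunit of respiratory complex III, had -0.91 ± 0.31 (adjusted p = 0.491).

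Cell cycle genes had a median interaction of -1.13, with 31 of 33 below 0, 13 separated lower (15.0% of all genes) and 0 higher. Leaving out WT day 0 replicate 1 gave a median of -0.53, and dropping its replicate 2 gave -2.33. Leaving out KO day 2 replicate 1 gave -1.73, and dropping its replicate 2 gave -0.70. In calls, 0 of the 33 rose in KO and 3 rose in WT, near the share of all genes (8.06%), and the stromal sums given above move with the same libraries, which was not tested further. Mcm2, a subunit of the replicative helicase, had 20.4 and 16.2 CPM in KO at day 0 and 17.6 and 11.4 CPM in KO at day 2, against 12.1 and 16.8 CPM in WT at day 0 and 26.4 and 33.4 CPM in WT at day 2. Its interaction was -1.39 ± 0.39 (adjusted p = 0.471).

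The secretory and acidifying machinery had smaller median interactions below 0. Of 20 endoplasmic reticulum stress genes 8 were separated lower (15.0% of all genes) and 1 higher (median -0.28), led by Pdia6, a protein disulfide isomerase, at -0.90 ± 0.17 (adjusted p = 0.347). Of 17 V-ATPase subunits, which pump protons onto the bone surface, 9 were separated lower and 0 higher, with Atp6v1d at -0.60 ± 0.22. Their median was -0.23. Leaving out WT day 0 replicate 1 gave -0.38, and dropping its replicate 2 gave -0.15. Cholesterol synthesis genes had 4 of 21 separated lower, near the share of all genes (15.0%), and a median of -0.22 that was -0.07 without KO day 0 replicate 1. The lysosome genes were centred at 0.08, a sign that turned on the log2(TPM + 1) scale, where the median of all genes tested was itself -0.129. The p53 targets had a median of 0.20, with 4 of 16 separated higher and 3 lower, near the shares of all genes, and a median of 0.01 on the log2(TPM + 1) scale and as low as 0.09 with 1 library left out.

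**Figure D3:**
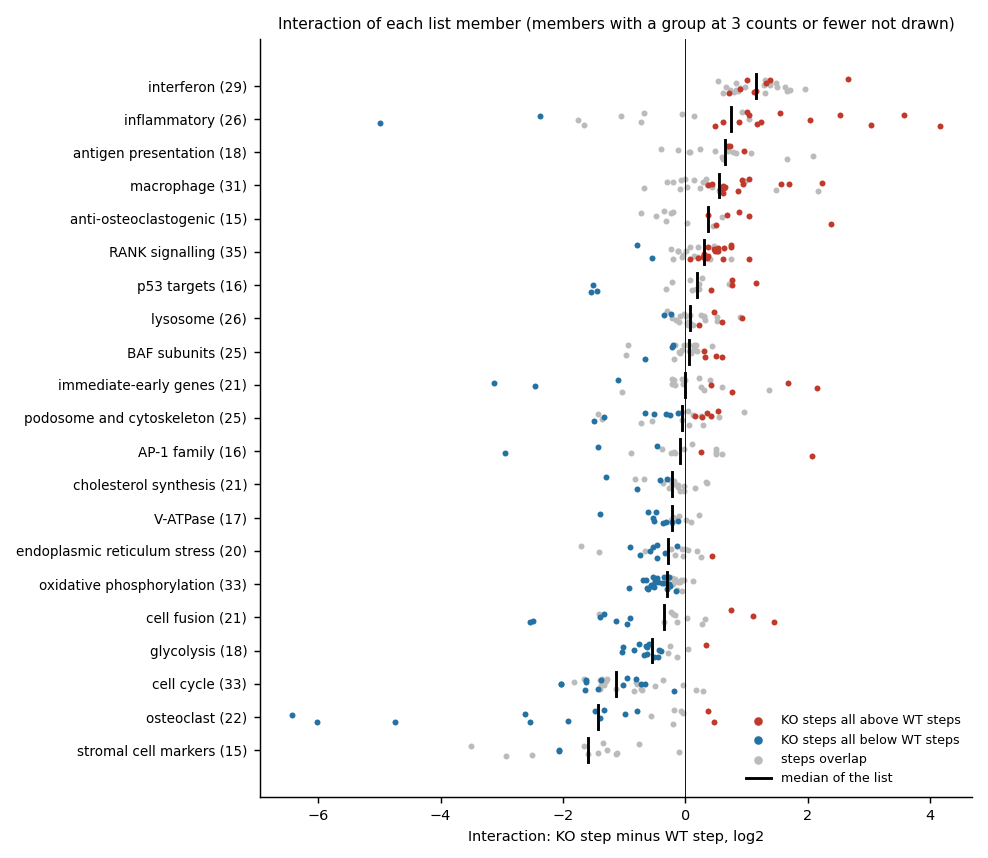
Interaction (KO step minus WT step, log2) of each tested member of 20 gene lists and of the stromal markers, with the number tested in brackets and a bar at the list median. The osteoclast and cell cycle medians lie at -1.43 and -1.13 and the interferon and inflammatory medians at 1.16 and 0.75, beside a median of -0.01 over all genes tested.

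Arid1a, the deleted gene, kept counts in the KO libraries. It had 94.6 and 104 CPM in KO at day 0 and 118 and 117 CPM in KO at day 2, against 242 and 197 CPM in WT at day 0 and 169 and 175 CPM in WT at day 2. The KO libraries lay below the WT libraries on both days. KO over WT was -1.15 ± 0.14 at day 0 (adjusted p = 0.0141, and up to 0.106 without either KO day 0 library) and -0.54 ± 0.14 at day 2 (adjusted p = 0.0613). The interaction was 0.60 ± 0.20 (adjusted p = 0.481). Loss of part of the transcript would not be visible in a count per gene. Its paralog Arid1b, the alternative subunit of the same complex, had 109 and 108 CPM in KO at day 0 and 119 and 128 CPM in KO at day 2, against 114 and 103 CPM in WT at day 0 and 88.7 and 85.0 CPM in WT at day 2. Arid1b fell in WT (-0.32, adjusted p = 0.0424, and up to 0.2 in 9 of 12 leave-outs), and its interaction was 0.51 ± 0.13 (adjusted p = 0.452), which was 0.05 on the log2(TPM + 1) scale. The 25 BAF subunits had a median of 0.05, which was -0.05 without WT day 0 replicate 1. It was also -0.05 on the log2(TPM + 1) scale, where the median of all genes tested was -0.129.

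Calls between the genotypes on each day show where the gaps lay. Of the 603 genes with a higher KO step, 137 were called higher in KO at day 2 (3.09% of all genes tested) and 36 were called lower in KO at day 0 (0.814%). Of the 411 with a lower KO step, 65 were called lower in KO at day 2 (1.42%) and 16 were called higher in KO at day 0 (0.767%). Both days enter the interaction, so these counts say only where a gap was large enough to be called. The gap was the wider one at day 2 in 403 of the 603 and in 297 of the 411.

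The remaining genes of the 12 highest and 12 lowest interactions were not called. Among the highest were Irf4, an interferon regulatory factor (2.39 ± 0.63, but 0.06 on the log2(TPM + 1) scale), the cytokine subunit gene Ebi3 (2.26 ± 0.69), Arl5c (2.27 ± 0.58), Gpr162 (2.42 ± 0.98) and Ifit1bl1 (2.73 ± 1.14, and 1.48 on the log2(TPM + 1) scale). Irf4 had 13.8 and 11.97 CPM in KO at day 0 and 3.19 and 2.80 CPM in KO at day 2, against 6.92 and 5.19 CPM in WT at day 0 and 0.167 and 0.361 CPM in WT at day 2. The CPM values were higher in KO than in WT on both days. Among the lowest were Slit3, a guidance cue that is secreted (-5.90 ± 1.61, and -1.84 on the log2(TPM + 1) scale), Kbtbd11 (-5.12 ± 1.76), the kinase-anchoring gene Akap6 (-3.29 ± 1.29, and -6.53 without WT day 0 replicate 2) and the prostaglandin transporter gene Slco2a1 (-3.03 ± 1.12, and -1.60 on the log2(TPM + 1) scale). Slit3 had 7.24 and 6.76 CPM in KO at day 0 and 7.88 and 6.41 CPM in KO at day 2, against 0.116 and 0.166 CPM in WT at day 0 and 14.7 and 3.37 CPM in WT at day 2.

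The day 4 libraries took no part in choosing these genes, apart from the shared estimate of spread. Among the 12 highest interactions of the rule of size, KO over WT at day 4 had the same sign in 11 and was called in that direction in 10, where 14.5% of all genes tested were called higher in KO. Tnfaip3 was the exception in sign, at -0.42 (adjusted p = 0.0882). Among the 12 lowest, 9 had the same sign and 3 were called lower, where 11.1% of all genes tested were called lower: Mmp9, Ocstamp and Plxna4, a semaphorin receptor. Over all 603, 423 had the same sign, 208 were called in the same direction and 41 in the other. Over all 411, the counts were 313, 127 and 26. Across all 6327 genes with an interaction above 0, 3948 had a positive day 4 difference, 1498 were called in that direction and 426 in the other. Across the 6444 below 0, 4279 had a negative one, 988 were called in that direction and 358 in the other.

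**Figure D4:**
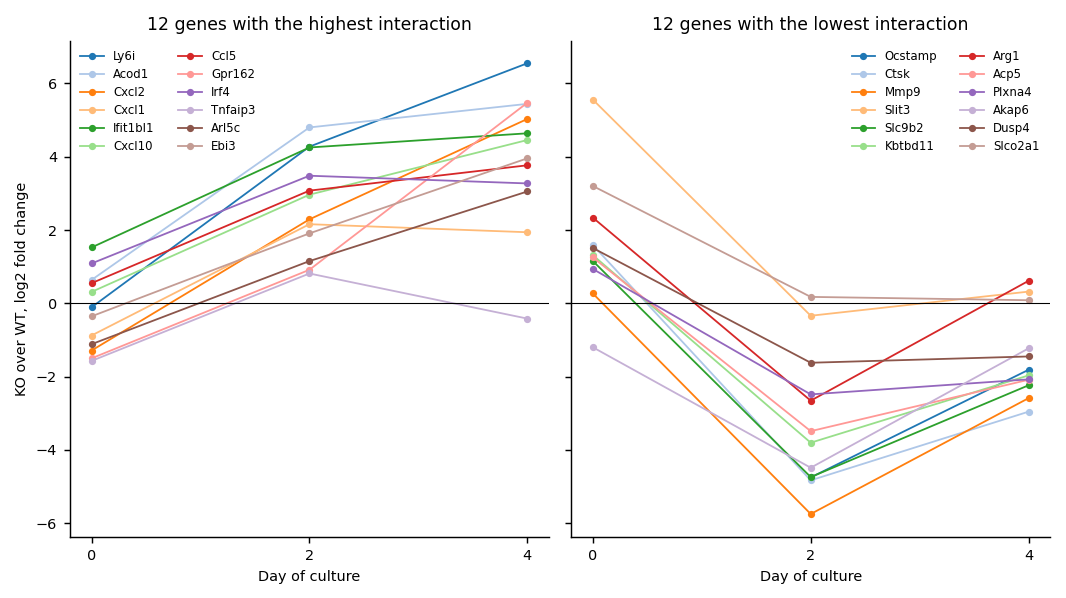
KO over WT (log2 fold change) at days 0, 2 and 4 for the 12 genes with the highest interaction (left) and the 12 with the lowest (right), 1 line per gene. The left lines rise from day 0 to day 2 and all but Tnfaip3 stay above 0 at day 4, the right lines drop to day 2 and 9 of 12 lie below 0 at day 4, and Ocstamp has no point at day 0 because WT held 1 count there.

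The number of calls depended on the tool. DESeq2's Wald test called 101 genes (50 higher, 51 lower), while limma-voom called 0, with 1173 genes at an unadjusted p under 0.05. All 101 had separated steps (31.0% of all genes tested), and 99 had an unadjusted p under 0.05 in edgeR (9.52%). These measures use the same counts and contrast, so their overlap gives no separate support to the calls. Among the 101 were Tnfaip3, Mmp9, Jdp2, Ctsk, Acp5, Dock5, Lyz2, Tlr2, Csf1r and Acod1. Fos, Jun and Arid1a were not among them. On the log2(TPM + 1) scale limma called Tnfaip3 and Mmp9. On that scale all genes tested had a median interaction of -0.129, and list medians there should be read against it: the osteoclast median was -1.59, the glycolysis median -0.65, the interferon median 1.05 and the RANK signalling median 0.19.

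**Figure D5:**
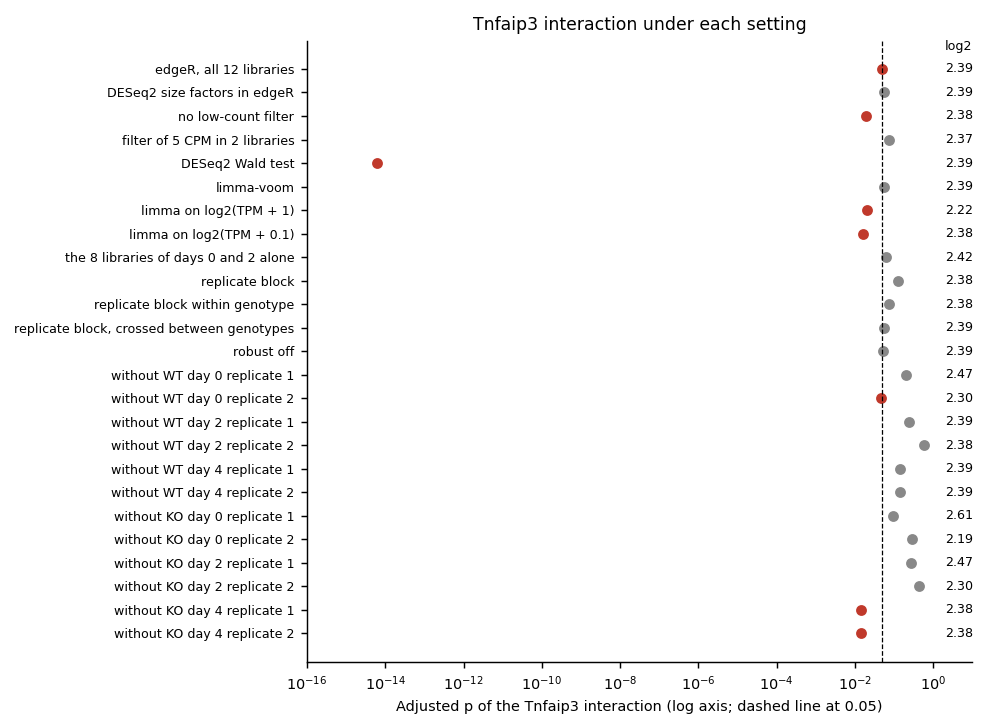
Adjusted p (log axis) of the Tnfaip3 interaction under each setting, with its log2 value printed at the right and a dashed line at 0.05. The value stays between 2.19 and 2.61 in every setting drawn, and the adjusted p lies on both sides of the line.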

How the data were processed

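RNA-seq libraries of KO and WT bone-marrow-derived macrophages at days 0, 2 and 4 were analysed, with groups and replicate numbers taken from the labels. The authors deposited expected counts per gene, here whole numbers, and TPM values. Among the tools in the submitters' processing notes are RSEM 1.3.1, STAR 2.7.3a and Trim Galore 0.6.1. Strandedness and annotation are not given in the sources used here, so overlapping and antisense genes cannot be told apart.

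The counts of all 12 libraries were fitted with edgeR 4.0.16 (R 4.3.3): TMM scaling, filterByExpr (minimum count 10), a robust quasi-likelihood fit with 1 mean for each group of libraries, two-sided tests and Benjamini-Hochberg adjustment over 12774 genes. The SE is the log2 fold change divided by the square root of F. Separated steps used log2(CPM + 0.5). Alternatives used DESeq2 1.42.0 and limma 3.58.1. The procedure was tested on simulated data.

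The text names Arid1a, Siglec15, Jun and Fos, every called gene, the 12 highest and 12 lowest interactions of the rule of size, and genes drawn from the up to 4 members per list with the smallest interaction p. Nfatc1, Lyz1 and Gpc1 were added after their values were seen. Members and lists were chosen with earlier results of these data known. Genes under date-like names were counted and not named.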

Additional observations from a re-analysis of the deposited data

Results flagged for a closer look

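Tnfaip3 is listed because its change from day 0 to day 2 differed between the genotypes by a test of the difference itself. The interaction was 2.39 (log2, edgeR adjusted p = 0.0484, n = 2 libraries in each of 4 groups, from the fit across all genes). All 4 KO differences between libraries lay above all 4 WT differences. Steps were separated in either direction in 31.0% of all genes tested. These differences use the same libraries as the test, so they give no separate support. Over 24 other settings the adjusted p ran from 6.04e-15 to 0.58.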

How the results depend on the processing

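With 2 libraries a group, the number of calls moved with most settings. The 1 interaction call became 0 with DESeq2 size factors (1226 genes at an unadjusted p under 0.05), the filter of 5 CPM (1084), limma-voom (1173), the 8 libraries alone (1691) and robust fitting off (1215), 2 on the log2(TPM + 1) scale and 101 by DESeq2, and 0 to 18 with 1 library left out. Calls in list members became 0 with DESeq2 size factors, the filter of 5 CPM or the 8 libraries alone, 2 on the log2(TPM + 1) scale, and 0 to 5 with 1 library left out. DESeq2 called 1320 genes in the KO step, 754 between genotypes at day 0 and 1634 at day 2. A log2 fold change of at least 1 left 326 calls in the KO step, 900 in the WT step and 332 at day 2, and the 8 libraries alone gave 1206 at day 2. With 1 library left out the calls ran from 122 to 1058 in the KO step, 473 to 3265 in the WT step, 2 to 459 at day 0 and 1 to 1719 at day 2. On the log2(TPM + 1) scale the WT step had 1247 rises and 648 falls, and day 2 had 331 higher and 347 lower. Of the list medians recomputed, 16 changed sign, and the cause was not tested.

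The replicate numbers are shared between groups, and the data gave no pairing by number across genotypes. Differences between replicates correlated across genotypes at -0.36 at day 0 and -0.09 at day 2. Those of WT day 0 also correlated at -0.54 with KO day 2 and -0.41 with KO day 4. Those of WT day 2 and day 4 lay between -0.09 and 0.04 with the KO groups. Between days of one genotype the differences correlated at 0.43 to 0.60 in KO and 0.11 to 0.30 in WT. With 2 numbers these correlations are a hint from the data and not the design. With the replicate block the interaction had 0 calls (1261 genes at an unadjusted p under 0.05; Tnfaip3 adjusted p = 0.129). With the replicate block within genotype it had 2, Gpc1 (-1.84) and Jdp2 (-2.95), and lost Tnfaip3 (adjusted p = 0.0747), with 403 calls between genotypes at day 0 and 1597 at day 2. The crossed pairing, chosen after seeing the data, gave 1 interaction call (Jdp2 in place of Tnfaip3) and 1211 calls at day 2.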
